A study of Mus musculus with 71 samples.

Results

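The genes described here are 9 genes that control where intraepithelial lymphocytes (IELs) go, how they stay in the gut epithelium and how T cells leave tissues, chosen by name from the 24475 identifiers in the deposited table of sorted IELs. They are Itgae, Itgb7, Ccr9, Gpr18, Gpr55, Cd69, S1pr1, Klf2 and Ccr7. γδ IELs were sorted as CD45+ TCRβ− TCRγδ+ cells from the duodenum, jejunum and ileum of female C57BL/6 mice, either Btnl2-/- mice (Btnl2-KO, in which a LacZ cassette in frame with the start codon and a selection cassette give a null allele) or their wild-type (WT) littermates from heterozygous crosses, housed together. Bulk RNA-sequencing gave 22 libraries labelled 10 weeks of age, each a pool of more than 1 mouse. There were 4 WT and 3 KO libraries of duodenum, 4 and 4 of jejunum and 4 and 3 of ileum. Single-cell RNA-sequencing gave 6 libraries labelled 8 to 10 weeks, 1 per segment and genotype. By the study's methods the sorted samples were split, the larger part going to bulk sequencing and the rest being pooled for the single-cell libraries, so the single-cell values do not come from independent mice. Unsorted intestinal epithelial cells (IECs) from WT and KO mice labelled 7 weeks gave another 16 bulk libraries, read here as background. They were 3 WT and 2 KO libraries of duodenum, 3 and 3 of jejunum and 2 and 3 of ileum. The other samples of the series were not used here.

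T cells enter the small intestine by following the chemokine CCL25, made by the epithelium, through its receptor CCR9, and are then held by the integrin αE (CD103, from Itgae) paired with β7 (Itgb7), which binds E-cadherin on epithelial cells. CD69 pulls the sphingosine-1-phosphate receptor S1PR1 off the cell surface, and so keeps tissue T cells from following the lipid out into lymph and blood. The transcription factor KLF2 turns on S1pr1 in recirculating T cells, and is low in resident ones, while CCR7 takes T cells into afferent lymph and lymph nodes. GPR18 and GPR55 are G protein-coupled lipid receptors abundant in IELs, GPR18 being linked to the accumulation of IELs and GPR55 to holding back their movement.

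Promoters of 5 of the 9 genes were matched in the RefSeq table used here (GRCm38.p6; Klf2, Ccr9, Itgb7, Gpr18 and Gpr55), and 4 of them are shown as examples from the comparison between single cells described further on, in which Klf2, Ccr9 and Itgb7 were higher and Gpr55 lower in cells with an S1pr1 UMI. Each runs from 250 bases before to 50 bases after the start that the table gives, on the strand of the gene; for Itgb7 and Gpr55 that start lies inside the extent of the annotated gene and is not its outermost one. Capitals mark CACCC or its reverse complement GGGTG, the core bound by KLF proteins.
Klf2 (chr8:72318812-72319111, plus strand): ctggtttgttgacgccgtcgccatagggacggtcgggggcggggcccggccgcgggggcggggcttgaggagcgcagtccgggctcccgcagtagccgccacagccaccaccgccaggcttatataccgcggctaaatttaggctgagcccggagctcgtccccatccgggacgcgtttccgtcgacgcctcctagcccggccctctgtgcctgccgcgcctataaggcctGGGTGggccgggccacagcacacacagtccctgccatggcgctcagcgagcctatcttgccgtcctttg
Ccr9 (chr9:123766961-123767260, plus strand): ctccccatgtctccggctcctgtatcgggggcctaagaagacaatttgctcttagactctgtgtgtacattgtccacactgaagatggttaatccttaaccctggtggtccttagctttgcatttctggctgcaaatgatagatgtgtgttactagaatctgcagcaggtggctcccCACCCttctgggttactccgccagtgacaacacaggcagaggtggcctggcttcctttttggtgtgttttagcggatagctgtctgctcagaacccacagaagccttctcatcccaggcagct
Itgb7 (chr15:102231886-102232185, minus strand): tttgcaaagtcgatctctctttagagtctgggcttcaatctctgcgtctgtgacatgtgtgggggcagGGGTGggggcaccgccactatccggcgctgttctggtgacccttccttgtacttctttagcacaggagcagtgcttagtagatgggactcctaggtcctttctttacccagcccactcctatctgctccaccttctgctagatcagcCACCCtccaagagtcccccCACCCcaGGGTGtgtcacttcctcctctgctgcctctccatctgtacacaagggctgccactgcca
Gpr55 (chr1:85961006-85961305, minus strand): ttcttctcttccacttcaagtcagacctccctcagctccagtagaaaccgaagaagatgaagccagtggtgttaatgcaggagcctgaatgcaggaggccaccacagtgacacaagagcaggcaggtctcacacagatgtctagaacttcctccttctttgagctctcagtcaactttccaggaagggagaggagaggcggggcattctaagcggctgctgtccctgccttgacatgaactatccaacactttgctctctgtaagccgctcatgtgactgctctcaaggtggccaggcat
The core was found 1 time in the Klf2 window, 1 time in Ccr9 and 4 times in Itgb7, and 0 times in Gpr55 and Gpr18. Of all 32851 promoter windows in the table, 57.5% hold it on one strand or the other. Other motifs were searched in the same windows. The RUNX core (TGTGGT or ACCACA) was found 1 time each in Gpr18 and Gpr55 and 0 times in Klf2, Ccr9 and Itgb7. An E-box (CACCTG or CAGGTG) was found 1 time in Ccr9 and 0 times in the others. The FOXO site (TGTTTAC or GTAAACA) was found 0 times in each. Of all windows 16.8%, 20.2% and 3.65% hold these motifs. A match is a run of letters, not a site shown to be bound, and no motif was tested against the direction of the genes.

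The libraries held 13444966 to 30029487 expected counts (median 18277155). The targeted gene was checked first. In CPM, a gene's counts for every 1000000 counts of the library after edgeR's TMM scaling of library sizes, Btnl2 was 0 in all 3 duodenal KO libraries against a mean of 6.18 in WT, and among the jejunal KO libraries it was 0 in 3 and 0.0435 in the other against a mean of 6.06. In the ileum it was 0.123, 0 and 0 CPM in the KO libraries against a mean of 2.98, a difference that did not pass the test (false discovery rate, FDR, 0.263). Epithelial RNA was present in all 22 libraries. The sum over 12 epithelial genes ranged from 238 to 9037 CPM, none of the 12 being at 0 in any library, and Epcam alone from 123 to 957 CPM. In the single cells without an S1pr1 UMI, Epcam was seen in 36.4%, against 1.73% for Krt8 and 2.65% for Lgals4. Part of the Epcam level may thus be the IELs' own, which was not tested. The sum of the 12 did not overlap between the ileal groups, at 3349 to 9037 in WT and 895 to 3267 in KO. The cells otherwise carried the markers of their label, with Cd3e at 846 to 1923 CPM and the granzyme gene Gzma at a median of 20879 CPM. The B cell gene Pax5 was 0 in 21 libraries, although Cd79b lay at 97.1 to 180 CPM, and the macrophage gene Csf1r reached at most 0.531 CPM. Cd4 ranged from 0.0585 to 4.16 CPM.

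Retention and homing genes were abundant and egress genes were rare. Per kilobase of exon, the median CPM over the 22 libraries was 422 for Itgb7, 311 for Itgae and 248 for Gpr18. It was 34.3 for Ccr9, 23.0 for Gpr55 and 19.3 for Cd69. Klf2 stood at 2.50, S1pr1 at 1.57 and Ccr7 lower still on the same scale, so the 3 egress genes lay below all 6 others. Between libraries Itgae varied from 805 to 2441 CPM, and S1pr1 from 0.878 to 8.27 CPM. The expected counts of S1pr1 were 15 to 163 a library. All 9 genes passed the filter on low counts in every comparison.

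**Figure D1:**
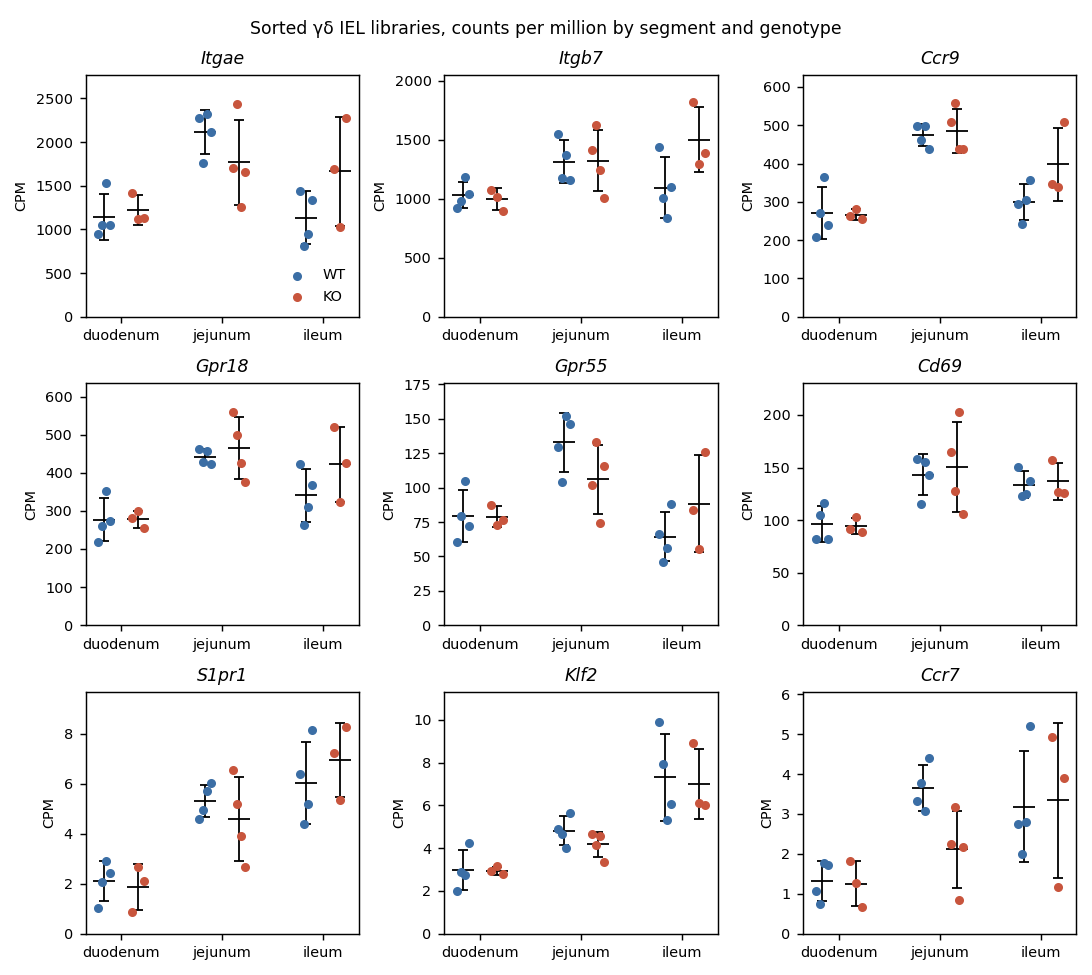
CPM of the 9 genes in the 22 bulk libraries of sorted γδ IELs, on linear axes from 0; each point is 1 library, placed by segment and coloured by genotype, and bars mark group means ± SD. S1pr1 and Klf2 sit lowest in the duodenum in both genotypes, whereas Itgae, Ccr9 and Gpr55 of WT mice peak in the jejunum.

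In WT mice S1pr1 and Klf2 rose from duodenum to ileum. S1pr1 was 1.01, 2.07, 2.92 and 2.44 CPM in the 4 duodenal libraries and 6.38, 4.37, 5.20 and 8.13 CPM in the 4 ileal ones. Every ileal library was above every duodenal one. The fitted log2 fold change was 1.51 ± 0.36 (SE; edgeR quasi-likelihood test, FDR 0.0475), where a gene was called when its FDR over all genes tested was below 0.05 and its fold change above 1.5. Klf2, the activator of S1pr1, was 2.02, 2.87, 2.73 and 4.24 CPM in the WT duodenum and 9.89, 7.95, 5.33 and 6.04 CPM in the WT ileum, again without overlap. Its log2 fold change was 1.30 ± 0.25 (edgeR FDR 0.0116). Of the 9 genes 2 were called higher, where 0.449% of all genes tested were. The other 7 genes were not called: the log2 fold change of Ccr7 was 1.26 ± 0.46 (edgeR FDR 0.316), that of Cd69 0.47 ± 0.17 (edgeR FDR 0.319), and the other 5 lay between −0.30 (Gpr55) and 0.30 (Gpr18). The groups of 4 genes did not overlap (S1pr1, Klf2, Ccr7 and Cd69), against 6.1% of all genes tested. The S1pr1 call was lost when any 1 of the 8 libraries was left out (edgeR FDR 0.0504 to 0.177, log2 fold change 1.28 to 1.72), and the Klf2 call without duodenum WT replicate 1 or 2 (edgeR FDR up to 0.0579). Both calls were lost with only these groups in the fit (edgeR FDR 0.0528 and 0.0559), and that of S1pr1 with libraries scaled on the Cd3 genes (edgeR FDR 0.104) or with no filter on low counts (edgeR FDR 0.0613). In bulk samples, fewer cells that carry a transcript and less of it per cell cannot be told apart.

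The KO mice showed the same order of segments for S1pr1. It was 0.878, 2.66 and 2.09 CPM in the KO duodenum and 7.22, 5.36 and 8.27 CPM in the KO ileum, with no overlap. The log2 fold change was 1.89 ± 0.42 (edgeR FDR 0.0450), but it was called in 1 of the 6 fits that left out a library, the one without duodenum KO replicate 2 (edgeR FDR 0.0487 to 0.201). Klf2 was 2.93, 3.14 and 2.77 CPM in the KO duodenum and 8.89, 6.10 and 6.03 CPM in the KO ileum. Those groups did not overlap either, and its log2 fold change of 1.25 ± 0.29 just missed the threshold (edgeR FDR 0.0547). Ccr7 was 1.81, 1.27 and 0.679 CPM against 4.94, 1.18 and 3.90 CPM, so that 1 ileal library lay within the duodenal range (log2 fold change 1.42 ± 0.53, edgeR FDR 0.284). With 1 of 9 genes called higher against 0.299% of all genes, 6 of the 9 had groups that did not overlap (Itgb7, Ccr9, Gpr18, Cd69, S1pr1 and Klf2), against 15.9% of all genes. The summed epithelial genes moved in opposite directions in the genotypes (median log2 fold change 0.55 in WT and −1.15 in KO), while S1pr1 and Klf2 were higher in the ileum in both. With the epithelial level as a covariate, S1pr1 and Klf2 were called in both genotypes (edgeR FDR 0.0111 and 0.00239 in WT, 0.0202 and 0.0417 in KO). Genes of αβ T cells moved alongside them, with a median log2 fold change over the 3 tested of 0.86 in WT and 1.15 in KO, and Cd5 was called in KO (2.01, edgeR FDR 0.0493). The sum of 4 such genes (Cd4, Cd5, Cd6 and Foxp3) was 18.5 to 31.2 CPM in the KO duodenum and 48.3 to 58.9 CPM in the KO ileum, with Foxp3 at 0 in 6 of the 22 libraries. In the WT mice this sum was 30.9 to 60.8 CPM in the duodenum and 41.3 to 60.7 CPM in the ileum, which overlapped. Their part in the result was not tested in bulk; Cd4 and Foxp3 in single cells are given further on.

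**Figure D2:**
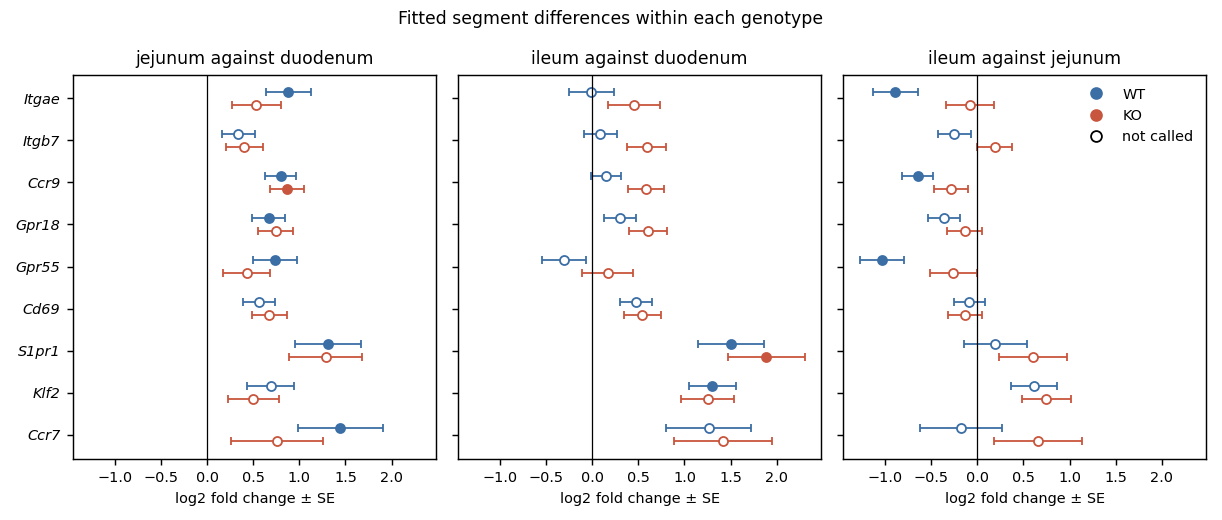
Fitted log2 fold changes ± SE of the 9 genes between segments, with WT and KO in separate colours; filled points passed both thresholds and open points did not. For ileum against duodenum the filled points are S1pr1 and Klf2 in WT and S1pr1 in KO.

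Between duodenum and jejunum, 6 of the 9 genes rose in the WT mice, among them both homing genes and egress genes. Itgae, the αE integrin chain, was 946, 1047, 1526 and 1046 CPM in the duodenum and 2276, 1767, 2318 and 2116 CPM in the jejunum, with no overlap (log2 fold change 0.88 ± 0.25, edgeR FDR 0.0282). Ccr9, the receptor for CCL25, was 208, 271, 365 and 239 CPM in the duodenum and 499, 462, 497 and 439 CPM in the jejunum, also without overlap (0.80 ± 0.17, edgeR FDR 0.0202). Gpr18 (0.67 ± 0.18), Gpr55 (0.73 ± 0.24), S1pr1 (1.31 ± 0.36) and Ccr7 (1.44 ± 0.46) rose as well (edgeR FDR 0.0254, 0.0404, 0.0263 and 0.0384). The comparison was one in which 7.6% of all genes were called higher and 15.5% in either direction. Cd69, at 0.56 ± 0.17 (edgeR FDR 0.0355), fell short of the fold minimum, and Klf2 (0.69 ± 0.25, edgeR FDR 0.0589) and Itgb7 (0.34 ± 0.18, edgeR FDR 0.184) missed the FDR threshold. The groups of 5 genes did not overlap, against 35.1% of all genes. This count was the least stable of those given: it was 0 without duodenum WT replicate 1 or 4 or jejunum WT replicate 1, 3 or 4, it was 1 without duodenum WT replicate 2, and it was also 0 when libraries were scaled on the Cd3 genes.

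From jejunum to ileum, 3 of the same genes fell again in WT mice. Itgae was 1435, 805, 952 and 1337 CPM in the 4 ileal libraries, all below the jejunal ones (log2 fold change −0.89 ± 0.25, edgeR FDR 0.0349). Ccr9 was 294, 243, 305 and 358 CPM (−0.65 ± 0.17, edgeR FDR 0.0300). Gpr55 was 66.6, 46.1, 56.3 and 87.9 CPM against 130, 104, 152 and 146 CPM in the jejunum (−1.04 ± 0.24, edgeR FDR 0.0262). None of these groups overlapped, which held for 3 of the 9 genes and for 32.9% of all genes. The 3 calls compare with 7.01% of all genes called lower, and they were lost without ileum WT replicate 2 or 3 or jejunum WT replicate 1, 3 or 4, and also when libraries were scaled on the Cd3 genes, which left 0 calls over all genes. S1pr1 (0.20) and Klf2 (0.62 ± 0.25, edgeR FDR 0.0896) did not pass; DESeq2 called Klf2 (0.66, DESeq2 FDR 0.0383). Itgb7, the partner chain, was not called in any of these comparisons and ranged from 836 to 1817 CPM over all libraries. The median log2 fold change of the 12 epithelial genes was 1.14 for WT ileum against jejunum and −0.49 for WT jejunum against duodenum. With the epithelial level as a covariate, 3 of the 9 genes were called lower in the former and 6 higher in the latter. The part of the epithelial signal was not tested further.

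In the KO mice the jejunum differed less clearly. Ccr9 was 262, 282 and 255 CPM in the KO duodenum and 508, 557, 439 and 438 CPM in the KO jejunum, without overlap, and was the 1 gene of 9 called (0.86 ± 0.18, edgeR FDR 0.0485), against 0.172% of all genes called higher; the groups of 4 of the 9 did not overlap, against 13.7% of all genes. It was called in 1 of the 7 fits that left out a library, the one without jejunum KO replicate 4, in which 2 of the 9 genes were called. Gpr18 (0.74 ± 0.19, edgeR FDR 0.135), S1pr1 (1.28 ± 0.39, edgeR FDR 0.204) and Cd69 (0.67 ± 0.19, edgeR FDR 0.179) had log2 fold changes like those in WT and did not pass. From jejunum to ileum 0 of the 9 genes were called in KO by edgeR and 0 by DESeq2, with 1 of 9 at an unadjusted p below 0.05 and 0% of all genes called by edgeR; 1 of 9 had groups that did not overlap, against 3.13% of all genes. Klf2 was furthest from 0 there, at 0.75 ± 0.27 (edgeR FDR 0.786).

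The question of the study was what loss of Btnl2 changes in γδ IELs at each site, and for these 9 genes 0 passed the test in each segment. In the duodenum their log2 fold changes, KO against WT, ran from −0.17 to 0.10, and the smallest edgeR FDR was 0.997. In the jejunum Ccr7 was furthest from 0, at 2.24, 3.18, 0.855 and 2.18 CPM in KO and 3.32, 3.78, 3.08 and 4.40 CPM in WT, groups that overlapped (−0.75 ± 0.38, edgeR FDR 0.583). In the ileum 8 of 9 had positive values, with a median of 0.33 against 0.06 for all genes, and the smallest edgeR FDR was 0.601. Itgae there was 1696, 1032 and 2279 CPM in KO against 805 to 1435 CPM in WT, which overlapped (0.57 ± 0.32, edgeR FDR 0.613). Ccr9 was 346, 339 and 509 CPM in KO against 243 to 358 CPM (0.43 ± 0.23, edgeR FDR 0.601). In no segment was there a gene of the 9 whose KO and WT groups did not overlap, where 3.01%, 3.32% and 6.89% of all genes had such groups in duodenum, jejunum and ileum. Over all genes the calls were 0.00789%, 0.00794% and 0%; in the ileum 1108 genes and 0 of the 9 had an unadjusted p below 0.05 with edgeR, and DESeq2 called 2 genes higher and 225 lower, again with 0 of the 9. In duodenum and jejunum 0 of the 9 had an unadjusted p below 0.05 with edgeR, and 0 were called by DESeq2 or limma. limma-voom with quality weights called 3 of the 9 higher in the KO ileum, namely Itgae (0.76, limma FDR 0.0490), Itgb7 (0.85, limma FDR 0.0307) and Gpr18 (0.65, limma FDR 0.0467), in a fit that called 391 of 12604 genes higher and 816 lower. The lower epithelial signal of the ileal KO libraries (median log2 fold change −1.40 over the 12 epithelial genes) moved with this comparison, and its part was not tested beyond the fit with the epithelial level as a covariate, which called 0 of 9.

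Whether the segment differences themselves differed between genotypes was tested as an interaction. None of the 9 genes passed for any pair of segments with edgeR (smallest FDR over the 9 genes 0.716, 0.817 and 0.324), with 0 genes called overall by edgeR. Itgae (0.81 ± 0.36, edgeR FDR 0.324) and Gpr55 (0.78 ± 0.35, edgeR FDR 0.329) had the only unadjusted p-values below 0.05 among the 9, both for ileum against jejunum, in which 1928 genes had such p-values. With limma 3 of the 9 were called for that interaction, which were Itgae, Itgb7 and Gpr55, in a fit that called 1567 of 13360 genes higher and 1138 lower; limma called 0 of the 9 for the other pairs and DESeq2 0 for every pair. The weaker fall of Itgae and Gpr55 from jejunum to ileum in KO therefore was not shown to differ from that in WT with the main test.

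Around the 9 genes, 6 lists of related genes were read in the same fits. Of all genes, 0.449% (WT) and 0.299% (KO) were called higher from duodenum to ileum. From duodenum to jejunum 7.6% (WT) and 0.172% (KO) were, and 7.01% were called lower from jejunum to ileum in WT. That last comparison had 0 calls without ileum WT replicate 2 or 3 or jejunum WT replicate 1, 3 or 4. WT jejunum against duodenum had 8 to 36 without duodenum WT replicate 1 or 4 or jejunum WT replicate 1, 3 or 4. Among 15 tested genes of recirculating T cells, Satb1 (1.52) and Lef1 (1.12), nuclear regulators of naive T cells, rose from duodenum to ileum in KO. Lef1 lay at the median of the list there, and the list median in WT was 0.40, against 0.05 in KO and −0.01 in WT for all genes. From duodenum to jejunum in WT, Tcf7 (1.31) and Satb1 (0.73) rose, among 3 of the 15 called higher, against 7.6% of all genes. Among 20 adhesion genes, Cd44, the hyaluronan receptor, rose from duodenum to ileum in WT (0.65) and KO (0.88), joined in KO by Jaml (0.86), whose product binds the epithelial junction protein CXADR. In the WT jejunum 7 of the 20 were higher than in the duodenum, led by Kit (1.34), Itgax (0.90), Itgal (0.87), Itga1 (0.86) and Cd96 (0.78), against 7.6% of all genes. In the WT ileum 5 of the 20 were lower than in the jejunum, Kit (−1.22), Itga1 (−0.96), Itgax (−0.78), Itgav (−0.71) and Cd96 (−0.62), against 7.01% of all genes, and Cd2 was higher (0.86). In the KO jejunum the only adhesion gene called was Cd226 (1.08).

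Of 15 tested trafficking receptors, Gpr34 (0.86) and Ptger4 (0.83) rose from duodenum to jejunum in WT, and Ptger4 (−0.85), Ptger2 (−0.77) and Gpr34 (−0.76) fell from jejunum to ileum; 0 were called between duodenum and ileum in either genotype. Of 14 tested genes of sphingosine-1-phosphate signalling, Sgpl1, the lyase that destroys the lipid (1.01), and Sgpp1, a phosphatase of it (0.66), rose from duodenum to jejunum in WT. From jejunum to ileum Spns2, an exporter of the lipid (−3.52), Sgpl1 (−1.29), S1pr3 (−1.07) and S1pr2 (−0.73) fell. Spns2 was near the floor, at a mean of 0.0803 CPM in the WT ileum and 0.983 CPM in the WT jejunum. Of 19 tested tissue residency genes, Tgfbr2, the TGF-β receptor (0.89), and Hic1 (0.72) rose from duodenum to jejunum in WT, and Nr4a3 (−1.34) and Xcl1 (−1.25) fell. Those that fell from jejunum to ileum included Tgfbr2 (−0.94), Prdm1 (−0.88), Hic1 (−0.77) and Ahr (−0.76). From duodenum to jejunum 3 of the 15 receptors, 2 of the 14 and 3 of the 19 were called higher, against 7.6% of all genes. From jejunum to ileum 3, 4 and 6 of them were called lower, against 7.01%. Whether these lists differed from all genes was not tested. Of the 9 listed ligands 5 were tested, and 0 were called. No gene of these 6 lists was called between KO and WT in any segment. Of the marker lists, Hspa1b, a heat-shock gene, fell from duodenum to ileum in WT (−2.49), Atf3, a stress gene, and the keratin gene Krt18 rose from jejunum to ileum in WT (2.69 and 2.05), and 0 of 9 tested genes of γδ IEL identity were called in any comparison.

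The ligands were read from the epithelium itself, over both genotypes and all segments together. In the 16 IEC libraries Cdh1, which encodes E-cadherin, lay at 753 to 1316 CPM against 139 to 458 CPM in the sorted IELs, and Ccl25 at 81.8 to 250 CPM against 6.24 to 364 CPM in the IELs. The 2 ranges of Ccl25 overlapped, with medians of 150 CPM in the IECs and 158 CPM in the IELs. In the IECs the 9 genes were far lower than in the IELs: Itgae was 2.08 to 41.6 CPM, Itgb7 0.634 to 8.74, Ccr9 0.750 to 8.96 and Gpr18 0.173 to 3.67. S1pr1 was 0 to 0.693 CPM, Klf2 0.0761 to 0.710 and Ccr7 0 to 0.0900. The range in IECs lay below that in IELs for all 9 genes, and came nearest for Gpr55 (11.0 to 24.4 against 46.1 to 152 CPM).

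The single-cell tables held 23994 cell barcodes, of which 23569 were kept (at least 500 genes and at most 10% mitochondrial transcripts), 3589 to 4647 a library, with a median of 4877 to 5468 unique molecular identifiers (UMIs) per cell. There were 367 barcodes found in more than 1 library, 104 to 139 a library. With 1 library per segment and genotype there was no replicate check and no test, and the intervals here (exact Poisson for levels, exact Clopper-Pearson for shares of cells, both 95%) cover counting error only. Levels are again CPM, here of UMIs. S1pr1 in WT was at 2.43 CPM in duodenum (1.82 to 3.17), 2.68 in jejunum and 4.14 in ileum (3.31 to 5.12). In KO it was at 2.20 (1.60 to 2.94), 3.28 and 4.22 (3.50 to 5.06), so that the ileal interval lay above the duodenal one in both genotypes. Klf2 was at 7.10, 9.03 and 10.8 CPM of UMIs in WT, with duodenal and ileal intervals apart (6.02 to 8.31 and 9.39 to 12.3). In KO Klf2 was at 6.40, 10.4 and 8.48, and there the duodenal and ileal intervals overlapped. Ccr7, on 10 to 52 UMIs a library, was at 0.961, 0.998 and 1.46 in WT and 0.489, 1.52 and 1.86 in KO, with duodenal and ileal intervals apart in KO only (0.234 to 0.899 and 1.39 to 2.44); the difference between genotypes was not tested.

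Among the retention genes, Itgb7 was higher at each step along the gut in the cells, at 449, 477 and 524 CPM of UMIs in WT and 428, 447 and 511 in KO. Gpr18 did so more weakly, at 205, 216 and 229 in WT and 187, 206 and 218 in KO. In both genotypes their ileal intervals lay above the duodenal ones. Itgb7, Gpr18 and S1pr1 were thus 3 of 9 genes apart in both genotypes, against 4.14% of the 11820 genes with a mean of at least 10 UMIs a library; without the 5% of cells with most UMIs S1pr1 no longer met this and 2 of 9 remained. Without barcodes shared between libraries the same 3 genes met it. Itgae was nearly level, at 933, 957 and 900 in WT and 937, 930 and 938 in KO, and so were Ccr9 (211, 220 and 216; 197, 236 and 219) and Gpr55 (103, 99.7 and 93.6; 92.2, 94.3 and 88.9). The jejunal peak of Itgae, Ccr9 and Gpr55 in the WT bulk libraries therefore had no counterpart of that size in the WT cells. Cd69 was at 138, 177 and 154 in WT and 138, 156 and 131 in KO, highest in the jejunum in both.

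**Figure D3:**
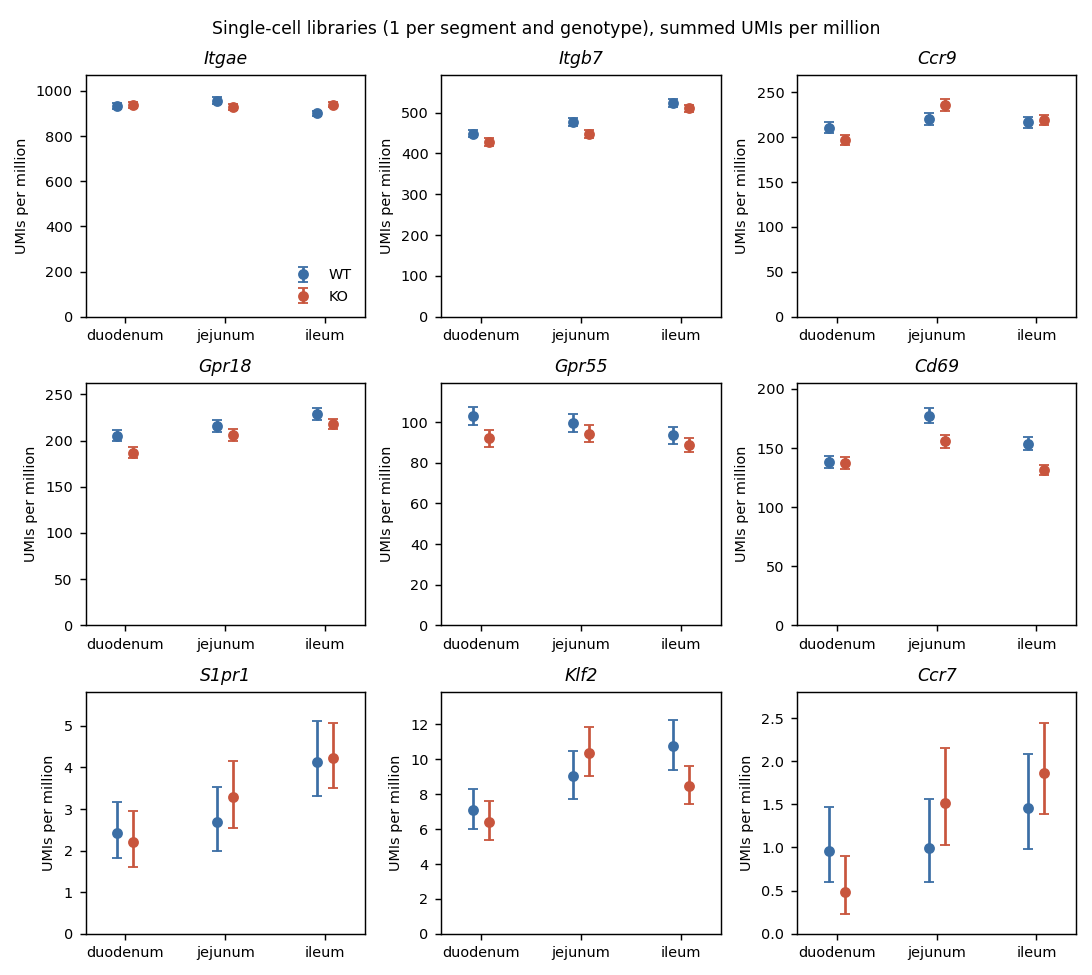
CPM of UMIs of the 9 genes summed over the kept cells of each of the 6 single-cell libraries, by segment and genotype, on linear axes from 0; bars are exact Poisson 95% intervals, which cover counting error only. S1pr1 reaches 4.14 (WT) and 4.22 (KO) in the ileum from 2.43 and 2.20 in the duodenum, while Itgae stays between 900 and 957.

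Egress transcripts were found in few cells. An S1pr1 UMI was seen in 0.941% of WT cells in duodenum (0.664 to 1.30%), 0.919% in jejunum and 1.83% in ileum (1.43 to 2.32%), and in 0.844%, 1.11% and 1.57% of KO cells. After each cell was thinned to 1000 UMIs, which left out no cell, these shares were 0.331%, 0.195% and 0.431% in WT and 0.384%, 0.423% and 0.581% in KO, with intervals that overlapped between segments. Klf2 was seen in 1.55 to 2.48% of cells and Itgae in 3714 of 3911 cells of the library in which it was seen least. As a gauge of stray RNA, 79 kept cells rich in epithelial transcripts (at least 3 epithelial genes other than Epcam, with library medians of 5570 to 31108 UMIs against 4877 to 5468 in all kept cells) were read for the same genes. S1pr1 and Ccr7 were each seen in 0 of these 79 cells, which by a limit of 3 counts allows a share of up to 3.80% (exact Clopper-Pearson upper bound 4.56%). Klf2 was seen in 5 (6.33%, 2.09 to 14.2%), so the Klf2 shares of all cells did not exceed that level. Itgae was seen in 37 of the 79 (46.8%), Cd69 in 21 (26.6%) and Cd3e in 44 (55.7%). Whether this T cell RNA was stray or the cells' own was not tested, so the gauge is rough. The S1pr1 limit lies above its share in every library, so 0 of 79 cannot set that share apart from stray RNA.

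S1pr1, Klf2 and Ccr7 tended to be found in the same cells, though in many cells only 1 of them was seen. At this depth a transcript that was not seen may still have been present. Within each library, the correlation between cells of log2(thinned UMIs + 1) was averaged over the 6 libraries. It was 0.31 for S1pr1 and Klf2 (0.18 to 0.48 over libraries), 0.28 for Klf2 and Ccr7 (0.24 to 0.32) and 0.18 for S1pr1 and Ccr7 (−0.002 to 0.35). The other 33 pairs of the 9 genes had mean correlations within ±0.033, Itgae and Itgb7 among them (0.03). Cells thinned to 2000 UMIs gave 0.39, 0.38 and 0.28 for the 3 egress pairs and at most 0.067 in size for the others. All pairs share the cells and libraries they were read from, and most cells were at 0 for the egress genes.

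**Figure D4:**
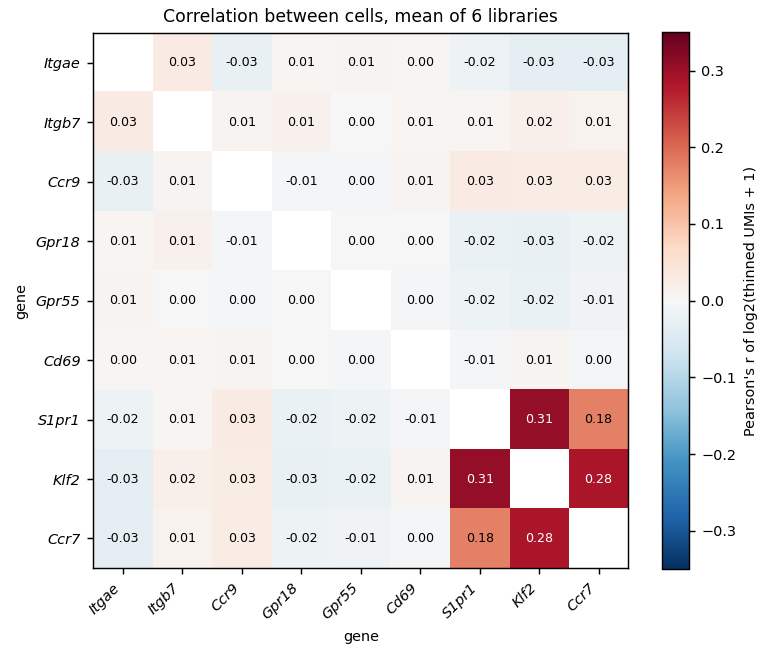
Pearson correlation between cells of log2(thinned UMIs + 1) for each pair of the 9 genes, as the mean of the within-library values of the 6 single-cell libraries; the colour scale gives r. The block of S1pr1, Klf2 and Ccr7 stands out at 0.18 to 0.31, and all other pairs lie within ±0.033.

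Counted over all 23569 kept cells, 286 had an S1pr1 UMI. Klf2 was seen in 138 of them (48.3%), against 1.43% of the 23283 other cells. Ccr7 was seen in 59 (20.6% against 0.211%). Among 472 cells with a Klf2 UMI, 85 (18.0%) had a Ccr7 UMI, against 0.0996% of the rest. Only 1 of the 3 egress transcripts was seen in 464 cells. Cells with at least 2 of the 3 numbered 174 (0.738%), 54 of them with all 3. They made up 0.560%, 0.529% and 0.943% of WT cells from duodenum to ileum and 0.409%, 0.900% and 1.03% of KO cells. The KO duodenal and ileal intervals were apart (0.234 to 0.664% and 0.763 to 1.37%), and the WT ones overlapped (0.351 to 0.846% and 0.658 to 1.31%).

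Cd4, Foxp3, Cd79a, Ms4a1 and Csf1r, markers of CD4 T cells, B cells and macrophages, were at or near 0 in the 286 cells. Cd79b, of the same B cell list, was not. With all UMIs it lay at 63.2 to 111 CPM of UMIs over libraries, against 88.6 to 94.5 in the other cells. Cd3e was seen in 284 of the 286 cells. Cd4 and Foxp3 were seen in 0 of 286, which by the same limit allows up to 1.05% (exact upper bound 1.28%), against 0.193% and 0.133% of the other cells, and Cd79a and Ms4a1 were each seen in 1 cell and Csf1r in 0. Cd5, a marker of conventional T cells, was seen in 17.1% against 0.765%, and Cd6 in 26.6% against 7.24%. Epcam was seen in 11.9% against 36.4%. Their median UMIs per library were 4512 to 4997, against 4879 to 5481 in the other cells, so they were not the deeper cells. Several transcripts of cytotoxic IELs were less frequent in them. Gzma was seen in 33.6% (28.1 to 39.4%) against 79.6% and Gzmb in 24.8% against 76.2%. Cd8a was seen in 38.1% against 89.2%, Fcer1g in 32.2% against 80.2% and Cd7 in 80.4% against 98.7%. Cd160, of the same γδ IEL identity list, differed in direction between libraries with all UMIs. In WT it was at 570 against 529 CPM of UMIs in duodenum, 655 against 595 in jejunum and 715 against 653 in ileum. In KO it was at 568 against 507, 566 against 647 and 644 against 679.

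The other members differed between these cells and the rest as well. On thinned counts, in which 94 cells had an S1pr1 UMI, the level of Klf2 was higher by 6.46 on the log2 scale (6 of 6 libraries) and that of Ccr7 by 6.28 (5 of 6). Ccr9 was at 495 against 225 CPM of UMIs (log2 ratio 1.14, higher in 6 of 6 libraries) and Itgb7 at 630 against 482 (0.39, 5 of 6). Itgae was at 665 against 958 (−0.53, lower in 5 of 6). Gpr18 (−2.63) and Gpr55 (−3.14) were lower in 6 of 6 libraries, on 5 and 1 UMIs in those cells, and Cd69 was lower in 4 of 6 (−0.43). Thus 4 of the 8 members went the same way in all 6 libraries, where 1.24% of 11819 genes were higher and 29.5% lower in all 6. With all UMIs of each cell, and hence 286 cells with an S1pr1 UMI, 7 of the 8 did so, against 6.51% higher and 14.1% lower over all genes. There Klf2 was at 6.49, Ccr7 at 6.97, Ccr9 at 0.85 and Itgb7 at 0.36, and Itgae at −0.64, Gpr18 at −0.64 and Gpr55 at −1.30, while Cd69 (0.14, higher in 4 of 6) had the opposite sign to its thinned value. Itgae was seen in 80.1% of the 286 cells (75.0 to 84.5%) against 96.1% of the others, and Cd69 in 46.5% against 46.4%. The Cd69 shares differed in direction between libraries, at 22 of 33 cells against 1684 of 3878 in duodenum KO and 11 of 37 against 1754 of 3894 in duodenum WT.

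**Figure D5:**
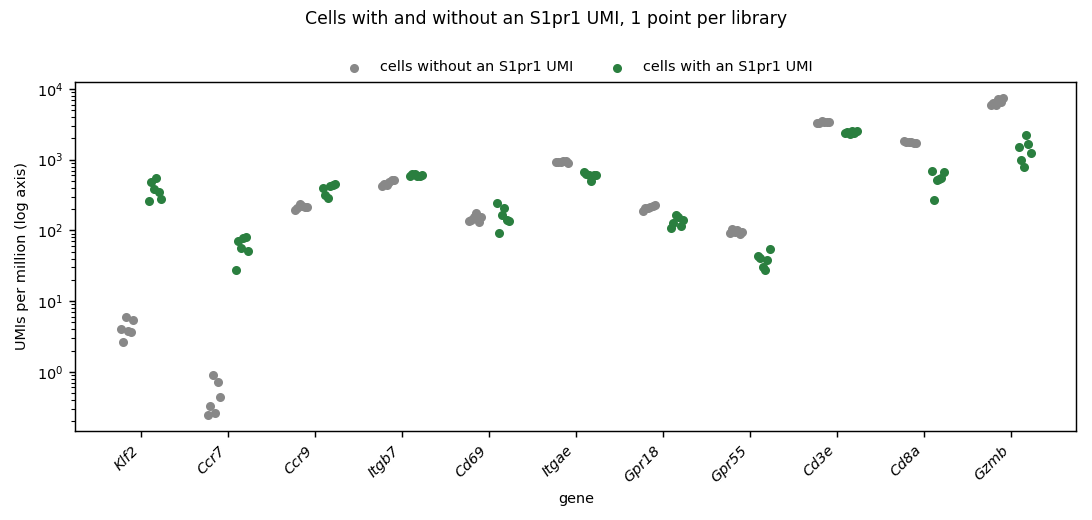
CPM of UMIs (log axis) of members and of markers in cells without (grey) and with (green) an S1pr1 UMI, 1 point per single-cell library and all UMIs of each cell. Klf2 and Ccr7 are higher and Gzmb and Cd8a lower in the cells with an S1pr1 UMI in all 6 libraries.

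Some genes of the same lists, named after their values were seen, differed between the same cells in 6 of 6 libraries with all UMIs. Of 11819 genes, 6.51% were higher and 14.1% lower in all 6. Lef1 (log2 ratio 4.75), Cd2 (3.82), Satb1 (3.21), Itgal (1.88), Tcf7 (1.75), S1pr4 (1.44), Icam2 (1.43) and Itga4 (1.35) were higher in cells with an S1pr1 UMI. Among these, Lef1, Satb1 and Tcf7 belong to the list of recirculating T cells, and Cd2 and Itgal to the adhesion list. Prdm1 (−2.60), Gzmb (−2.23), Nr4a2 (−1.88), Cd101 (−1.84), Gzma (−1.79), Cd8a (−1.72), Ptger4 (−1.62), Itga1 (−1.20) and Rgs1 (−1.04) were lower, several of them being markers of residency or cytotoxic IELs. On thinned counts Satb1 and Tcf7 were higher and Gzmb, Nr4a2, Gzma, Cd8a, Itga1 and Rgs1 lower in 6 of 6 libraries, and the others were more mixed or at 0. Il7r changed direction, from −1.15 on thinned counts (2 UMIs, lower in 5 of 6) to 1.03 with all UMIs (higher in 6 of 6). These values describe 6 libraries and were not tested.

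Genes with a pattern over cells like that of each member were ranked by the mean within-library correlation over the 6 libraries. Only the 5346 genes with a thinned UMI in at least 2% of cells of every library were compared. This left out S1pr1, Klf2 and Ccr7 as partners, whose correlations with each other were higher (0.18 to 0.31). All correlations listed here were weak. For S1pr1 the highest were Dgka (0.10), Tmsb10 (0.09), Thy1 (0.08), Tagln2 (0.08) and Tcf7 (0.07). The lowest were Ccl5 (−0.13), Cd7 (−0.10) and Gzma (−0.09). Klf2 had Thy1 (0.11), Dgka (0.11), Dusp2 (0.11), Tmsb10 (0.10) and Arl4c (0.10) at the top and Ccl5 (−0.15), Cd7 (−0.14) and AW112010 (−0.10) at the bottom. Ccr7 had Dusp2 (0.09), Tmsb10 (0.08), Tcf7, Thy1 and Ms4a4b (0.08 each), and Ccl5 (−0.11), Cd7 (−0.10) and Gzma (−0.07) lowest. Ccr9 shared part of this list, with Thy1 (0.13), Tmsb10 (0.12), Cd160 (0.11), Rps20 (0.10) and Tcf7 (0.10) highest and Gzma (−0.21), Ccl5 (−0.21) and Gzmb (−0.19) lowest.

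Itgae showed the opposite arrangement, with Gzma (0.15), Ccl5 (0.14), Gzmb (0.10), Cd7 (0.07) and Cd3g (0.07) highest and Tmsb10 (−0.11), Rpl13 (−0.09) and Rps2 (−0.09) lowest. For Cd69 the highest were the activation genes Egr1 (0.09), Ccl4 (0.08), Zfp36l1 (0.06), Nfkbid (0.05) and Nr4a2 (0.05), and the lowest Tyrobp (−0.03), Ccl5 and Gzma (−0.02 each). Itgb7 had Itm2b, Lat (0.06 each), Gzmk (0.05), Gzma and Gzmb (0.04 each) highest and Xcl1 (−0.07), Il2rb and Fcer1g (−0.06 each) lowest. Gpr18 and Gpr55 both had Cd7 first (0.05 each), Gpr18 with Cd8a (0.05), Itm2b (0.04), AW112010 and Dapk2 (0.04 each) and Gpr55 with Lasp1 (0.04), Ttc3, Itgad and Cd8a (0.03 each). No correlation of Gpr18 or Gpr55 exceeded 0.05 in size, a range in which sparse counts give no pattern to describe.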

How the data were processed

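The authors deposited RSEM expected counts per gene for the bulk libraries, made in ArrayStudio from sense-strand exon reads on a custom mouse genome (build not given in the sources used here), and Cell Ranger counts of UMIs per gene and cell on mm10 (GRCm38) for the single cells, from a 10x 5′ kit. The 100 identifiers without a symbol (0.254 to 3.47% of counts) and 1 column of no sample were left out.

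Expected counts were rounded to whole numbers and tested with edgeR 4.0.16 (R 4.3.3, TMM scaling, quasi-likelihood, two-sided, keeping genes that reached 10 counts in a number of libraries equal to the size of the smaller group). KO was compared with WT 1 segment at a time. Segments and interactions were fitted over all 22 IEL libraries, FDR being the Benjamini-Hochberg value over all genes tested. No pair of replicates was a duplicate (lowest chi-square per degree of freedom 14.3 over 30 pairs). The study cut each small intestine into segments, so libraries of different segments may come from the same mice, but the labels do not link them; they were fitted as independent, and p-values measure the spread between these libraries. DESeq2 1.42.0, limma 3.58.1, other filters and scalings, an epithelial covariate and fits without each library were alternatives.

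Single cells kept the study's filter; doublets were not called. The members and lists were chosen with earlier results of these data known. Named were all 9 members, Btnl2, Ccl25, Cdh1, up to 5 called genes per list and direction, and per member the 5 genes of highest and 3 of lowest correlation among genes seen in at least 2% of cells; single-cell markers and list genes beside the S1pr1 cells were named after their values were seen. Some list genes are not reported here. Scripts were tested on simulated data.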

Additional observations from a re-analysis of the deposited data

Results flagged for a closer look

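Of 36 groups of 4 libraries tested for a library far from the others (9 members in 4 groups), 0 were flagged.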

How the results depend on the processing

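Depth was low for the egress genes: S1pr1 rested on 15 to 163 expected counts a bulk library and Ccr7 on 10 to 52 UMIs a single-cell library. No paired analysis was possible because the labels give no replicate numbers that groups share; replicates were numbered in accession order only. No called result reversed; the untested log2 ratio of Cd69 between cells with and without an S1pr1 UMI went from −0.43 to 0.28 at the second thinning depth and to 0.14 with all UMIs. The numbers of members called were 2 (WT ileum against duodenum), 6 (WT jejunum against duodenum), 3 (WT ileum against jejunum), 1 (KO ileum against duodenum) and 1 (KO jejunum against duodenum). With limma-voom and quality weights they were 3 for ileum KO against WT, 6 for KO ileum against duodenum, 4 for KO jejunum against duodenum and 3 for the interaction of ileum against jejunum. With DESeq2 they were 4 for WT ileum against jejunum, 7 for WT jejunum against duodenum and 2 and 2 for the KO ileum and KO jejunum against duodenum. With no filter on low counts they were 1 for WT ileum against duodenum and 0 for the KO ileum and KO jejunum against duodenum. With only the groups compared in the fit they were 0 for WT ileum against duodenum (S1pr1 FDR 0.0528, Klf2 FDR 0.0559, edgeR), 0 for KO ileum against duodenum and 0 for KO jejunum against duodenum. With the epithelial covariate they were 2 for KO ileum against duodenum and 0 for KO jejunum against duodenum. With libraries scaled on Cd3d, Cd3e and Cd3g, chosen after seeing the data, they were 1 for WT ileum against duodenum (Klf2, edgeR FDR 0.0162) and 0 for each of the other 4 segment comparisons in which members had been called. Under this scaling the median log2 fold change of all genes was −0.36 to 0.23 for the differences and −0.49 to 0.12 for the interactions. Leaving out 1 library gave 0 to 1 (WT ileum against duodenum), 0 to 7 (WT jejunum against duodenum), 0 to 3 (WT ileum against jejunum), 0 to 1 (KO ileum against duodenum), 0 to 2 (KO jejunum against duodenum) and 0 in each other comparison. The count of members that went the same way in all 6 single-cell libraries was 4, and 7 with all UMIs of each cell, an alternative also added after seeing the data; leaving out 1 library gave 4 to 6. Over all genes, WT ileum against duodenum had 60 higher and 65 lower calls, against 148 and 130 with DESeq2, 191 and 208 with limma, 144 and 127 with only those groups, 170 and 330 with the epithelial covariate and 33 and 38 with Cd3 scaling. WT jejunum against duodenum had 1015 and 1061, against 1693 and 1887 with limma and 4 and 26 with Cd3 scaling. WT ileum against jejunum had 500 and 936, against 2263 and 2046 with limma, 1369 and 1379 with only those groups and 0 with Cd3 scaling. KO ileum against duodenum had 40 and 47, against 102 and 193 with DESeq2, 177 and 137 with limma, 118 and 134 with the covariate and 7 and 16 with Cd3 scaling. KO jejunum against duodenum had 23 and 19, against 74 and 61 with DESeq2, 267 and 218 with limma and 1 and 9 with Cd3 scaling, and 0 with only those groups. The cause of these differences was not tested.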
